A study of Mus musculus with 6 samples.

Results

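The 10 genes described here encode the folding machinery of the endoplasmic reticulum and the sensors that adjust it. They are the chaperones Hspa5, Hsp90b1, Hyou1 and Calr, the cochaperones Dnajb9, Dnajc3 and Sdf2l1, the disulphide isomerase Pdia4, and the transcription factors Xbp1 and Atf6. They were chosen by symbol, and each matched 1 of the 40303 gene models in the deposited table. All 10 were expressed above the limit for testing. Secreted and membrane proteins fold in the endoplasmic reticulum, and misfolded chains there set off the unfolded protein response. ATF6 then moves to the Golgi, where proteases release its transcription factor domain. IRE1 cuts the Xbp1 messenger RNA so that it codes for an active factor, and PERK slows translation. ATF6 and spliced XBP1 raise the chaperone genes.

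The tumours were grown from CT26, a mouse colon carcinoma line, under the skin of BALB/c mice, the strain the line comes from. In the PEG-glutaminase group 3 mice, labelled WT, received PEGylated glutaminase at 50 IU per kg by injection into the peritoneum every 3 days. The enzyme breaks glutamine down in the circulation. In the vehicle group 3 mice, also labelled WT, received phosphate-buffered saline with 10% glycerol on the same schedule. Tumours were frozen after 2 injections, and each gave 1 library of poly-A RNA. Their age and sex were not given in the sources used here. The comparison asks which transcripts differ between tumours of mice given the enzyme and of mice given the vehicle. Glutamine levels were not among the values used here.

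The values are normalized counts, that is reads per gene divided by a size factor of the library. Libraries held 16455052 to 16791267 reads in the PEG-glutaminase group and 17380129 to 18051480 in the vehicle group. Whole tumours also hold host cells, so fewer cells of a type and less RNA per cell cannot be told apart. Colon epithelial markers were low in these libraries. The 8 markers summed to 258 to 308 normalized counts in PEG-glutaminase tumours and 230 to 409 in vehicle tumours, with Krt18 the most abundant. Of the 6 tested, 2 were higher and 4 lower, with a median log2 change of -0.18. Epcam stood at 2.07 to 7.92 in PEG-glutaminase tumours and 6.87 to 57.9 in vehicle tumours. Krt8 went the other way, at 9.9 to 27.8 in PEG-glutaminase tumours and 6.87 to 9.66 in vehicle tumours. So did Krt19, below the limit for testing, at 8.91 to 19.5 in PEG-glutaminase tumours and 0.98 to 4.83 in vehicle tumours. Vil1 did not exceed 4.12 in any library. Vehicle 1 and PEG-glutaminase 2 stood apart in some marker lists. PEG-glutaminase 2 was the highest library in 6 of 9 marker lists and the lowest in 2. It was the highest in 23.9% and the lowest in 24.6% of all tested genes. Vehicle 2 was near it in this, the highest in 22.8% and the lowest in 21.6%. In the marker lists vehicle 2 was the highest library in 1 and the lowest in 3. Vehicle 1 stood apart in keratinocyte markers. The 7 measured of 9 summed to 61.4 to 65.3 in PEG-glutaminase tumours, with Lor, Krt77 and Dsc3 at 0, and to 7978, 71.6 and 199 in vehicle tumours 1, 2 and 3. Of these keratinocyte genes 7 of 7 were lower, with a median log2 change of -4.38 and vehicle 1 by far the highest library. The 8 T and NK cell markers summed to 439 to 3044 in PEG-glutaminase tumours and 3779 to 4651 in vehicle tumours, and PEG-glutaminase 2 was the lowest. Of these 8 of 8 were lower, with a median log2 change of -1.71. In 7 of the 8 the groups did not overlap, where 12.7% of all tested genes were lower without overlap. The 9 plasma and B cell markers, 4 of them above the limit for testing, summed to 961 to 1292 in PEG-glutaminase tumours and 871 to 930 in vehicle tumours, nearly all of it Sdc1. The plasma cell genes Mzb1 and Jchain did not exceed 11.3 in any library. The 8 macrophage markers summed to 41600 to 47980 in PEG-glutaminase tumours and 34580 to 46570 in vehicle tumours. Of the 8, 5 were higher and 3 lower, with a median log2 change of 0.11. Mrc1 had the largest change of the list, 1.40. It had 5036, 8955 and 4725 normalized counts in PEG-glutaminase tumours and 2117, 2078 and 2655 in vehicle tumours. The 3 lower were C1qa, C1qb and Mertk. C1qa had 8717, 6933 and 7357 normalized counts in PEG-glutaminase tumours and 7288, 7764 and 10850 in vehicle tumours. The 6 endothelial markers summed to 2775 to 3650 in PEG-glutaminase tumours and 2741 to 2820 in vehicle tumours. Of these 5 of 6 were higher, with a median log2 change of 0.18. Cldn5 was lower, with 106.7, 124.7 and 126.5 normalized counts in PEG-glutaminase tumours and 200.9, 190.3 and 149.1 in vehicle tumours. The 8 skeletal muscle markers summed to 147, 1688 and 47.3 in PEG-glutaminase tumours and 496, 196 and 1024 in vehicle tumours, with 8 of 8 lower and a median log2 change of -1.15. The 8 fibroblast markers summed to 59000 to 74890 in PEG-glutaminase tumours and 52420 to 71300 in vehicle tumours. Limma called 0 genes of any marker list. The part of these cell types in the results below was not tested.

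None of the 10 genes passed the test between the groups. Hyou1, Pdia4, Dnajc3 and Sdf2l1 averaged 19.7% to 28.6% higher in PEG-glutaminase tumours. Hsp90b1, Calr, Hspa5 and Atf6 averaged 5.54% to 11.2% higher, and the averages of Dnajb9 and Xbp1 were at -0.73% and -4.86%. Limma called 0 of the 10 at an adjusted p under 0.05, against 5 of 13557 tested genes or 0.0369% (0.00738% higher and 0.0295% lower). The replicated count tests also called 0 members. For edgeR the background was 0.0369% and for DESeq2 it was 3.9%. At an unadjusted p under 0.05, limma placed 4 of the 10 higher and 0 lower, where 8.92% of all tested genes were higher and 9.51% lower at that level. The 3 PEG-glutaminase values lay above all 3 vehicle values in 4 of the 10, against 13.1% of all tested genes. The genes were chosen by function and share regulators, so these counts describe the list and are no test of it.

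**Figure D1:**
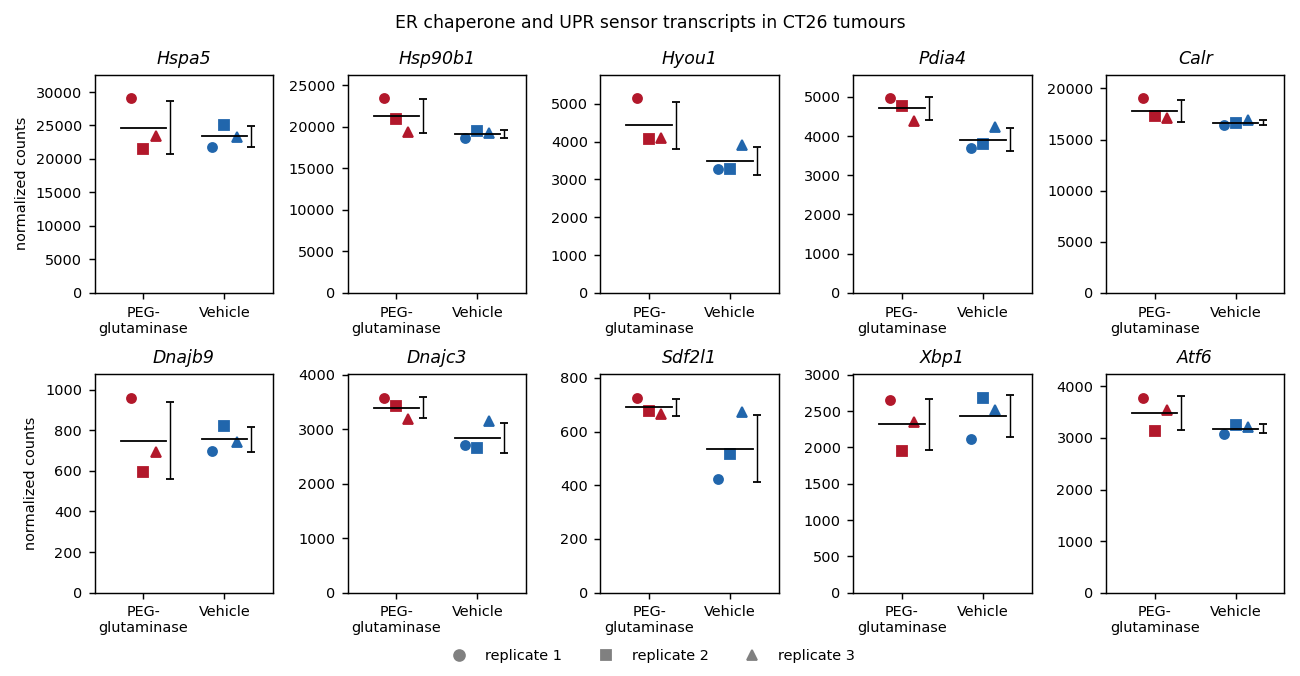
Normalized counts of each gene (vertical axes, from 0) in the 3 PEG-glutaminase tumours (red, left) and the 3 vehicle tumours (blue, right); symbols mark the replicate number, horizontal lines the group means and error bars the SD (n = 3). PEG-glutaminase 1 is the highest point in every panel except that of Xbp1, where vehicle 2 is highest.

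Many chaperone genes of this compartment are known to be controlled through the endoplasmic reticulum stress element, or ERSE, where ATF6 and XBP1 act together with the factor NF-Y. Promoters in RefSeq on GRCm38.p6, a C57BL/6J genome, were searched from 250 bases before the start site to 50 after it, on both strands. The table held promoters of 8 of the 10 genes, those other than Hyou1 and Atf6. The ERSE, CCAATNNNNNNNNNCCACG, was found in 4 of these 8 and in 39 of all 32851 promoters of the same length, or 0.119%. The second form of the element, ATTGG followed by any base and CCACG, was in 0 of the 8 and 0.0365% of all promoters, and the unfolded protein response element, TGACGTGG, was in 0 of the 8 and 0.676%. The letters CCACG, contained in the first and second forms, were in 7 of the 8 and 32.8% of all promoters. A match is a description of letters and not of a bound site.

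The ERSE letters are shown in capitals for the 4 genes that hold them, on the gene's strand, because they are the sequence these genes share beyond their function. Hspa5 is given from 150 bases before the start to the start, chr2:34771940-34772089, plus strand. Hsp90b1 has 2 matches, at chr10:86705628-86705666 and chr10:86705523-86705561, minus strand. Dnajc3 lies at chr14:118937817-118937855, plus strand, and Calr at chr8:84847065-84847103, minus strand. The second match in Hsp90b1 and the one in Calr run on the strand opposite to the gene.
Hspa5: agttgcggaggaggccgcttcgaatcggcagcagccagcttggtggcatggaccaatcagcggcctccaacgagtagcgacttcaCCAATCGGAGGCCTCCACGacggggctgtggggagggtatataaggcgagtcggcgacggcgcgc
Hsp90b1, first: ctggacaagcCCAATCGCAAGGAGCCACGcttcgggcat
Hsp90b1, second: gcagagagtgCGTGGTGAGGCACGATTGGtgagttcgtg
Dnajc3: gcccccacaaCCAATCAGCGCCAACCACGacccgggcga
Calr: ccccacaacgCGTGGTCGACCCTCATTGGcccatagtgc

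Pdia4, Sdf2l1, Dnajb9 and Xbp1 held no full ERSE in the searched window. Their log2 changes were 0.27, 0.39, -0.037 and -0.076 in that order, and those of the ERSE holders Hspa5, Hsp90b1, Calr and Dnajc3 were 0.068, 0.15, 0.095 and 0.26, so the ranges overlapped. The 110 bases before the start sites of Pdia4 and Sdf2l1 are shown with the CCAAT letters, or their reverse complement, in capitals, to set beside the promoters above. Pdia4 is chr6:47813513-47813622 and Sdf2l1 is chr16:17132384-17132493, both on the minus strand. CCAAT was in 7 of the 8 promoters and in 37.4% of all promoters.
Pdia4: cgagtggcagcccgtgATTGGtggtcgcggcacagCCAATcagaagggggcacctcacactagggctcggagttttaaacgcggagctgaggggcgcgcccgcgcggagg
Sdf2l1: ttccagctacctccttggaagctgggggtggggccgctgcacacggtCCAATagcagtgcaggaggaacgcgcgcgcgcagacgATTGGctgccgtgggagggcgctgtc

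**Figure D2:**
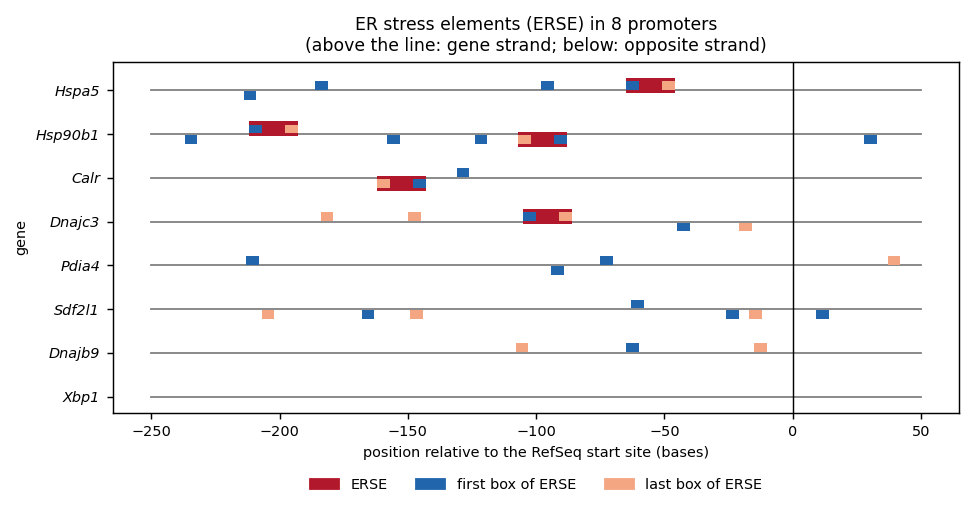
Positions in the 8 promoters of the ERSE (red) and of every match to its first box (blue) or last box (orange). Boxes inside a full ERSE are drawn as well as those apart from it. The horizontal axis is the position relative to the RefSeq start site in bases. Bars above a line are on the gene's strand and bars below on the other strand. Hspa5, Hsp90b1, Calr and Dnajc3 hold full elements, with that of Hspa5 nearest to the start, from 65 to 47 bases before it.

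Among the sensors, Atf6 (ENSMUSG00000026663) had 3780, 3135 and 3544 normalized counts in PEG-glutaminase tumours 1, 2 and 3, against 3085, 3252 and 3204 in vehicle tumours 1, 2 and 3. PEG-glutaminase 1 and 3 lay above every vehicle value and PEG-glutaminase 2 lay among them. The log2 change of Atf6, the membrane-bound sensor that is cut in the Golgi, was 0.13 ± 0.087 (SE; limma adjusted p = 0.437). Its 95% interval ran from -0.064 to 0.32. Without PEG-glutaminase 1 the change was 0.068 and without PEG-glutaminase 2 it was 0.20.

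Xbp1 (ENSMUSG00000020484), the messenger RNA that IRE1 splices, had 2656, 1957 and 2350 normalized counts in PEG-glutaminase tumours, against 2120, 2686 and 2512 in vehicle tumours. The groups overlapped throughout, with PEG-glutaminase 2 lowest and vehicle 2 highest. The log2 change was -0.076 ± 0.13 (SE; limma adjusted p = 0.772), with a 95% interval from -0.36 to 0.21, and without PEG-glutaminase 2 it stood at 0.041. It was -0.18 without PEG-glutaminase 1, -0.17 without vehicle 1 and -0.0032 without vehicle 2. The gene count does not show how much of this messenger RNA was spliced. The segment that IRE1 removes is 26 bases of a 2129-base transcript, at chr11:5524282-5524307 on the plus strand of GRCm38, inside coding exon 4 of 5. In the GENCODE M21 annotation 3 of the 4 Xbp1 transcripts hold it and 0 lack it alone. The deposited values are per gene, with 1 BALB/cJ gene model for Xbp1, so they do not separate the spliced and unspliced forms. The segment is shown in capitals with 10 bases on either side.
Xbp1: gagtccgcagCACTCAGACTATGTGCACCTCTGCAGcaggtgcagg

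Hspa5 (ENSMUSG00000026864) encodes BiP, the HSP70 chaperone of the lumen that also holds the sensors inactive. It had 29117, 21514 and 23361 normalized counts in PEG-glutaminase tumours, against 21848, 25050 and 23213 in vehicle tumours. PEG-glutaminase 1 was the highest library and PEG-glutaminase 2 the lowest, so the treated group spanned the whole vehicle range. The means were 24664 ± 3965 in PEG-glutaminase tumours and 23370 ± 1607 in vehicle tumours (SD, n = 3 each). The log2 change was 0.068 ± 0.12 (SE; limma adjusted p = 0.797), with a 95% interval from -0.21 to 0.34. Without PEG-glutaminase 1 the change was -0.058, and it was 0.16 without PEG-glutaminase 2, 0.021 without vehicle 1 and 0.12 without vehicle 2.

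Hyou1 (ENSMUSG00000032115) encodes GRP170, a large relative of HSP70 that exchanges the nucleotide on BiP. It had 5155, 4061 and 4092 normalized counts in PEG-glutaminase tumours, against 3275, 3270 and 3922 in vehicle tumours. Each PEG-glutaminase value lay above each vehicle value, and PEG-glutaminase 1 was far above the other two. The log2 change of 0.34 ± 0.11 (SE) did not pass (limma adjusted p = 0.177; DESeq2 adjusted p = 0.0853). Over all alternatives its adjusted p ranged from 0.0853 to 0.406. The change was 0.23 without PEG-glutaminase 1 and 0.43 without vehicle 3.

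Hsp90b1 (ENSMUSG00000020048) encodes GRP94, the HSP90 of the lumen, and Calr (ENSMUSG00000003814) encodes calreticulin, which binds calcium and folds glycoproteins. Hsp90b1 had 23493, 20948 and 19424 normalized counts in PEG-glutaminase tumours, against 18613, 19563 and 19230 in vehicle tumours. PEG-glutaminase 3 lay below vehicle 2, and the other two treated tumours lay above every vehicle tumour. The log2 change of Hsp90b1 was 0.15 ± 0.099 (SE; limma adjusted p = 0.427), and 0.076 without PEG-glutaminase 1. Calr had 19074, 17279 and 17126 normalized counts in PEG-glutaminase tumours, against 16432, 16632 and 16942 in vehicle tumours. Its groups did not overlap, though PEG-glutaminase 3 exceeded vehicle 3 only slightly. The log2 change of Calr was 0.095 ± 0.088 (SE; limma adjusted p = 0.579), and 0.046 without PEG-glutaminase 1.

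Among the cochaperones, Dnajc3 (ENSMUSG00000022136) encodes P58IPK, a lumenal J-domain partner of BiP. It had 3575, 3422 and 3186 normalized counts in PEG-glutaminase tumours, against 2707, 2648 and 3150 in vehicle tumours. The groups did not overlap, and PEG-glutaminase 3 and vehicle 3 lay close together. The log2 change was 0.26 ± 0.090 (SE; limma adjusted p = 0.185), with a 95% interval from 0.061 to 0.46 before adjustment.

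Sdf2l1 (ENSMUSG00000022769), a lumenal protein found in complex with BiP and J-domain partners, had 726, 678 and 666 normalized counts in PEG-glutaminase tumours. Vehicle tumours had 423, 515 and 671. The treated values were close together, and vehicle 3 lay among them while vehicle 1 was far below. The log2 change of Sdf2l1 was 0.39 ± 0.15 (SE; limma adjusted p = 0.229). It was the highest of the 10 with all libraries in, but not without vehicle 1 or without PEG-glutaminase 2. Without vehicle 1 Sdf2l1 stood at 0.23 and Hyou1 at 0.30. Without PEG-glutaminase 2 Sdf2l1 stood at 0.399 and Hyou1 at 0.402. The change of Sdf2l1 was 0.56 without vehicle 3.

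Dnajb9 (ENSMUSG00000014905) encodes ERdj4, a J-domain protein that binds misfolded chains and brings BiP to IRE1. It had 960, 593 and 693 normalized counts in PEG-glutaminase tumours, against 699, 822 and 742 in vehicle tumours. PEG-glutaminase 1 was the highest library and PEG-glutaminase 2 the lowest. The log2 change was -0.037 ± 0.17 (SE; limma adjusted p = 0.924), with a 95% interval from -0.42 to 0.34. Without PEG-glutaminase 1 it was -0.23, and without PEG-glutaminase 2 it was 0.12. It was 0.0037 without PEG-glutaminase 3 and 0.027 without vehicle 2.

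Pdia4 (ENSMUSG00000025823) encodes ERp72, a disulphide isomerase with several thioredoxin-like domains. It had 4975, 4768 and 4395 normalized counts in PEG-glutaminase tumours, against 3705, 3790 and 4242 in vehicle tumours. The groups did not overlap. The means were 4712 ± 294 in PEG-glutaminase tumours and 3913 ± 288 in vehicle tumours (SD, n = 3 each). The log2 change of 0.27 ± 0.087 (SE) had the lowest limma adjusted p of the 10 and did not pass (limma adjusted p = 0.171; DESeq2 adjusted p = 0.0926; edgeR adjusted p = 0.167). Over all alternatives the adjusted p ranged from 0.0926 to 0.36.

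The authors' deposited table gives its own comparison, in which 3.94% of genes with an adjusted p were below 0.05. In the authors' deposited table Pdia4 had a log2 change of 0.23 ± 0.074 (SE) and an adjusted p of 0.0497, and it was the 1 member below 0.05. Sdf2l1, Dnajc3 and Hyou1 followed in the authors' deposited table at adjusted p of 0.0619, 0.0650 and 0.0875. The mean column of the authors' deposited table departed by more than 1% from the mean of the 6 library columns for 65.6% of tested genes. The libraries or scaling behind it are therefore not known.

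**Figure D3:**
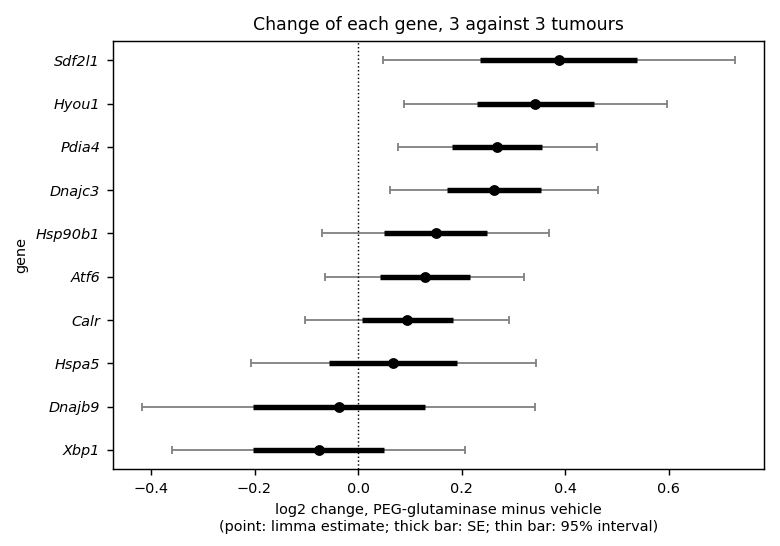
Log2 change of each gene (horizontal axis, PEG-glutaminase minus vehicle, limma on 3 against 3 tumours), ordered from the highest; thick bars are the SE and thin bars the 95% interval before adjustment. The intervals of Sdf2l1, Hyou1, Pdia4 and Dnajc3 lie above 0 and those of the other 6 genes include it; none passed after adjustment over 13557 genes.

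PEG-glutaminase 1 was the highest of the 6 libraries in 9 of the 10 genes, where it was the highest in 12.9% of all tested genes. The members' median deviation from each gene's mean, on the log2 scale, was 0.22 in PEG-glutaminase 1, 0.029 in PEG-glutaminase 2 and 0.014 in PEG-glutaminase 3. It was -0.14 in vehicle 1, -0.047 in vehicle 2 and -0.0090 in vehicle 3. Vehicle 1 was the lowest library in 5 of the 10 genes and in 15.6% of all tested genes. PEG-glutaminase 2 was the lowest in 3 of the 10, namely Hspa5, Dnajb9 and Xbp1, a share near its 24.6% of all tested genes. PEG-glutaminase 1 was neither the highest nor the lowest library in the summed level of any of the 9 marker lists. Such sums mostly follow the most abundant genes of a list, and the part of cell types was not tested.

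With PEG-glutaminase 1 left out, the count of members at an unadjusted limma p under 0.05 was 0, and it was 1 without vehicle 1 and 1 without vehicle 2. It was 5 without PEG-glutaminase 2. The median log2 change of the 10 was 0.14, beside a median of -5e-05 over all tested genes. It was 0.072 without PEG-glutaminase 1, and leaving out 1 library at a time put it between 0.072 and 0.18. In Hyou1, Pdia4, Calr and Dnajc3 the other PEG-glutaminase libraries also lay above every vehicle library.

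**Figure D4:**
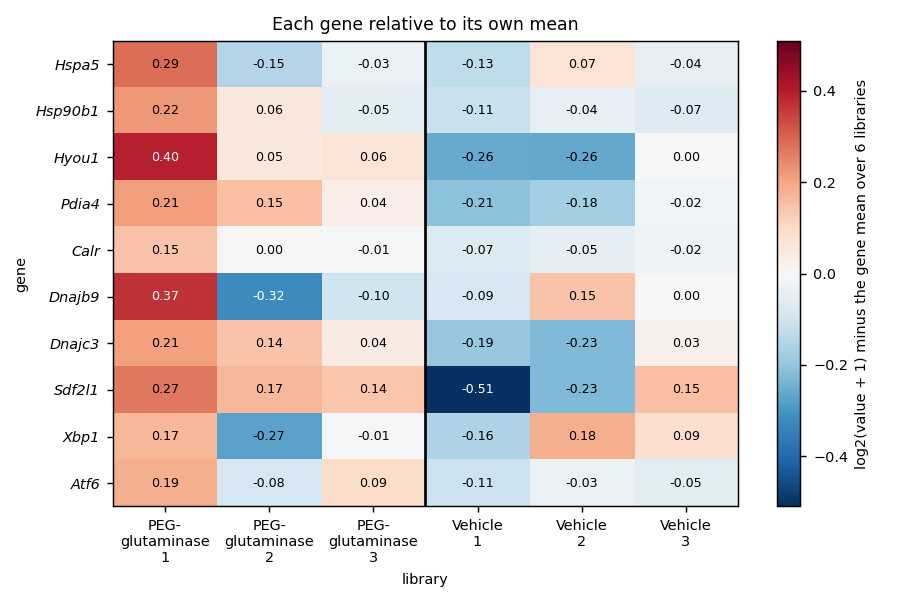
Deviation of each gene (rows) from its own mean over the 6 libraries (columns, PEG-glutaminase left of the line, vehicle right), on the log2(value + 1) scale; red is above the mean and blue below. PEG-glutaminase 1 is above the mean in all 10 genes, and Hspa5, Dnajb9 and Xbp1 are lowest in PEG-glutaminase 2.

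Levels can be set side by side per length, as mean normalized counts per kilobase of the longest protein-coding transcript in GENCODE M21. In this measure Calr stood at 8162 in PEG-glutaminase tumours and 7632 in vehicle tumours. Hsp90b1 stood at 7536 in PEG-glutaminase tumours and 6774 in vehicle tumours, and Hspa5 at 6717 and 6364 in the same groups. The gap between Hspa5 and Hsp90b1 was smaller than the SD of Hspa5 per kilobase, which was 1080 in PEG-glutaminase tumours and 438 in vehicle tumours. Pdia4 came next, at 1964 per kilobase in PEG-glutaminase tumours and 1631 in vehicle tumours. Xbp1 (1090 and 1146) and Hyou1 (988 and 777) followed in the same groups and units. In PEG-glutaminase tumours these neighbours did not differ beyond their SDs per kilobase of 164 and 139. In vehicle tumours Xbp1 stood above Hyou1 by more than either SD per kilobase, 136 and 84. The lower levels were those of Dnajc3 (660 and 551), Sdf2l1 (623 and 484), Atf6 (481 and 439) and Dnajb9 (304 and 307), again per kilobase in PEG-glutaminase and vehicle tumours.

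The 5 genes whose centred log2 values over the 6 libraries were nearest to those of Hspa5 were sought among 10309 genes that averaged 100 or more normalized counts. They were Krtcap2, a subunit of the enzyme that adds N-linked glycans in the endoplasmic reticulum, Leprotl1, the mitochondrial magnesium channel Mrs2, the growth factor Pdgfa and the necroptosis kinase Ripk3. Their root mean square differences from Hspa5 were 0.0265 to 0.0400 on the log2 scale. The nearest member was Atf6, at 0.0823 and rank 113, followed by Dnajb9 at rank 189 and Xbp1 at rank 279. Pdia4, Hyou1, Dnajc3 and Sdf2l1 were far from it, at ranks 3351 to 8154. None of the 5 nearest genes passed the limma test, and their log2 changes were 0.030 to 0.093. Without PEG-glutaminase 1 they were -0.057 for Krtcap2, -0.074 for Leprotl1, -0.079 for Mrs2, -0.0077 for Pdgfa and -0.029 for Ripk3. Without vehicle 1 Mrs2 stood at -0.012.

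Other genes of the same pathway were taken in 5 lists by role, and limma called 0 genes of each list in either direction. Leaving out 1 library put the median of each of these lists on either side of 0. That of the 10 genes was 0.072 to 0.18, beside 0.10 to 0.15 for cytosolic heat shock genes and 0.062 to 0.13 for the genes with an ERSE in their promoter. Of the other sensors and the proteases that cut ATF6, 7 of 8 were tested, 5 higher and 2 lower, with a median log2 change of 0.054. Ern2, an IRE1 of mucosal epithelia, is listed at 0 in every library. Ern1, which encodes IRE1, stood at 0.054 ± 0.22 (SE), and at -0.11 without PEG-glutaminase 1, -0.012 without vehicle 1 and -0.061 without vehicle 2. Eif2ak3, which encodes PERK, stood at 0.081 ± 0.12 (SE), and at -0.0043 without PEG-glutaminase 1. Atf6b, the close relative of Atf6, stood at 0.22 ± 0.097 (SE) and had the smallest p of those higher. Creb3, another membrane-bound factor, was lower at -0.22 ± 0.095 (SE). The proteases that release ATF6 were at -0.057 ± 0.10 (SE) for Mbtps1 and 0.17 ± 0.084 (SE) for Mbtps2. Mbtps1 stood at 0.017 without PEG-glutaminase 2 and 0.013 without vehicle 2.

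Of 20 other folding genes of the lumen, 12 were higher and 8 lower, with a median log2 change of 0.063. At an unadjusted limma p under 0.05, 2 were higher and 1 lower, shares near the 8.92% and 9.51% of all tested genes. Uggt1, which senses the folding of glycoproteins, stood at 0.34 ± 0.11 (SE), with 3805, 3690 and 3794 normalized counts in PEG-glutaminase tumours and 3137, 2497 and 3328 in vehicle tumours. Sil1, another nucleotide exchange factor of BiP, stood at -0.36 ± 0.12 (SE). It had 721, 558 and 664 normalized counts in PEG-glutaminase tumours and 765, 935 and 799 in vehicle tumours, which do not overlap. The lectin Canx, partner of Calr, was at 0.11 ± 0.087 (SE). The disulphide isomerases were at 0.19 ± 0.11 (SE) for Pdia6, 0.064 ± 0.093 (SE) for Pdia3 and -0.095 ± 0.12 (SE) for P4hb. Manf stood at 0.17 ± 0.14 (SE) and Creld2, a cysteine-rich lumenal protein, at 0.098 ± 0.13 (SE). Creld2 was at -0.030 without PEG-glutaminase 1.

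Of the genes of endoplasmic reticulum-associated degradation, which export misfolded chains to the proteasome, 17 of 18 were tested, 7 higher and 10 lower, with a median log2 change of -0.0059. Leaving out PEG-glutaminase 1 moved this median to -0.068 and leaving out PEG-glutaminase 3 to 0.041. Erlec1, a lectin of this pathway, was at -0.31 ± 0.090 (SE) and Edem1, which trims mannose from misfolded glycoproteins, at 0.19 ± 0.092 (SE). Herpud1, a membrane protein of the export complex, stood at -0.14 ± 0.12 (SE). Of the genes for translocation and signal peptide removal 20 of 21 were tested, 8 higher and 12 lower, with a median of -0.029. Spcs1 and Spcs3, subunits of the signal peptidase, stood at -0.19 ± 0.083 (SE) and 0.18 ± 0.11 (SE).

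The 8 genes downstream of PERK had a median log2 change of 0.0027, 4 higher and 4 lower. Atf4, the factor whose translation PERK favours, stood at -0.047 ± 0.10 (SE), and at 0.040 without vehicle 2. Ddit3, which encodes CHOP, stood at -0.62 ± 0.41 (SE), with 912, 483 and 938 normalized counts in PEG-glutaminase tumours and 1228, 1650 and 745 in vehicle tumours. The groups overlapped, with vehicle 3 below 2 of the PEG-glutaminase tumours. The stress protein Nupr1 was at -0.48 ± 0.13 (SE; limma adjusted p = 0.135), and DESeq2 called it lower (adjusted p = 0.0291). Asns, asparagine synthetase, was at 0.17 ± 0.11 (SE).

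**Figure D5:**
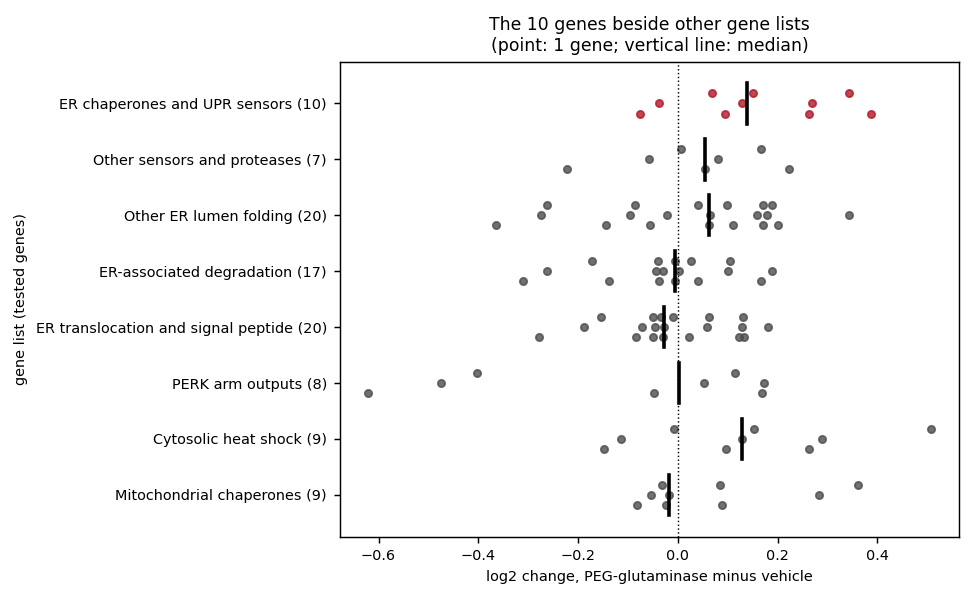
Log2 change of each tested gene (horizontal axis, PEG-glutaminase minus vehicle) in the 10 genes (red) and in 7 other lists (grey), with the number of tested genes in brackets and vertical lines at the medians. The medians of the 10 genes and of the cytosolic heat shock list are 0.14 and 0.13, and without PEG-glutaminase 1 they are 0.072 and 0.14; every list holds genes on both sides of 0.

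Genes were also taken by promoter letters in place of function. Of the 37 genes with a full ERSE in a RefSeq promoter, 17 were tested, 4 of them members. The 17 had a median log2 change of 0.098, with 13 higher and 4 lower and a range from -2.01 to 0.93, and limma called 0. The 13 that are not members also had a median of 0.098, with 9 higher. Among them Canx, Pdia6, Creld2, the ubiquitin ligase Syvn1 and the lumenal oxidase Ero1b act in the endoplasmic reticulum. Syvn1 was at 0.10 ± 0.084 (SE) and Ero1b at -0.26 ± 0.21 (SE), neither past the limma threshold. Both were named after their values were seen.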

How the data were processed

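RNA sequencing of 6 CT26 tumours was used, 3 per group, grouped by the sample titles. The authors deposited 1 table of signal values, read counts divided by a size factor per library. Among the tools in the submitters' processing notes are FastQC, STAR, featureCounts, and both DESeq and DESeq2, none with a version. The build aligned to, and whether counting used strand, was not given in the sources used here. The authors also deposited, beside those values, their log2 changes, Wald score and p-values, per the file headers. The table's rows carry identifiers of BALB/cJ gene models. Of 40396 rows, 93 repeat a model, and each model was used once, as its first row.

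All non-zero values were whole multiples of 1 read within 0.01, so whole reads were recovered (in PEG-glutaminase 2 the step is near 1, so only its values show this). The deposited values being normalized, limma 3.58.1 in R 4.3.3 was fitted on log2(value + 1), with a trend and robust estimation, to 13557 genes with a mean of at least 10. Fold changes of low genes are understated on this scale. Tests were two-sided, with Benjamini-Hochberg adjustment over all tested genes and a threshold of 0.05. Replicates are separate mice with 1 tumour each. An exact permutation test of 3 against 3 was not used, as it cannot pass this threshold.

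Alternatives were other pseudocounts and filters, TMM and upper quartile scaling, edgeR 4.0.16 and DESeq2 1.42.0 on recovered reads, the replicate number as a block, and each library left out. The fits were tested on simulated data. The 10 genes, the lists and the alternatives were chosen with earlier results of these data known. Named genes are the 10, a fixed set of 16 pathway genes, the gene of smallest p in each direction of each list, and the 5 nearest to Hspa5. Promoter sequences are from RefSeq. No pair of replicate libraries was the same within counting noise.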

Additional observations from a re-analysis of the deposited data

How the results depend on the processing

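Over the 13557 genes limma called 5. It called 136 with no filter, 1 with the replicate block and 9 at an adjusted p of 0.1, and DESeq2 called 487; without 1 library it called 0 to 25, with 0 without PEG-glutaminase 1, vehicle 1 or vehicle 2. The count of members called was 0 in each of these. Members at an unadjusted p under 0.05 numbered 0 to 5 without 1 library and 4 otherwise. No direction among the 43 named genes turned under the 10 other alternatives. Calls were gained by Hsph1 with no filter, and by Hsph1, Hspd1 and Nupr1 in DESeq2.

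Leaving out 1 library put Hspa5 at -0.058 to 0.16, Dnajb9 at -0.23 to 0.12, Xbp1 at -0.18 to 0.041, Ern1 at -0.11 to 0.24, Eif2ak3 at -0.0043 to 0.20, Mbtps1 at -0.15 to 0.017, Creld2 at -0.030 to 0.21, Atf4 at -0.099 to 0.040, Clpp at -0.17 to 0.041, Krtcap2 at -0.057 to 0.16, Leprotl1 at -0.074 to 0.15, Mrs2 at -0.079 to 0.13, Pdgfa at -0.0077 to 0.16 and Ripk3 at -0.029 to 0.15 (log2); the cause was not tested. Deviations from the group mean had r = -0.129, -0.214 and -0.220 across genes between same-numbered libraries. Between differently numbered libraries r ran from -0.013 to 0.19. Deviations within a group sum to 0, so these r depend on one another and cannot show whether the samples were handled as pairs. The replicate block changed no call of a member. With 3 tumours per group, the 95% intervals of single members were 0.39 to 0.76 wide on the log2 scale, which limits the differences that could be detected.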

Other observations

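Chaperones of other compartments were measured in the same libraries. Of 12 genes of the cytosolic heat shock response, 9 were tested, 6 higher and 3 lower, with a median log2 change of 0.13, and limma called 0. At an unadjusted limma p under 0.05, 3 of the 9 were higher and 0 lower, where 8.92% of all tested genes were higher. The PEG-glutaminase values lay above all vehicle values in 4 of the 9, against 13.1% of all tested genes. Among the 10 endoplasmic reticulum genes these counts were 4 and 4. Hsph1, the cytosolic relative of Hyou1, had the smallest p. It had 4342, 3435 and 3840 normalized counts in PEG-glutaminase tumours, against 2844, 2877 and 2434 in vehicle tumours, and the groups did not overlap. Its log2 change of 0.51 ± 0.10 (SE) did not pass in limma (adjusted p = 0.114) and passed in DESeq2 (adjusted p = 0.00208) and in limma with no filter (adjusted p = 0.0253). Over the libraries left out in turn, its limma adjusted p ran from 0.0581 to 0.293. Hspa8, the constitutive cytosolic HSP70, stood at 0.15 ± 0.081 (SE), and Bag3 at -0.11 ± 0.10 (SE). Hspa1a and Hspa1b, the heat-induced HSP70 genes, are listed at 0 in every library, and Hspb1 at no more than 1.04. Whether these transcripts were absent or were missed by the counting was not tested.

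Of 9 mitochondrial chaperone and protease genes 4 were higher and 5 lower, with a median of -0.017, and limma called 0. Leaving out PEG-glutaminase 3 put this median at 0.056, and leaving out vehicle 2 put it at 0.061. Hspd1, which encodes HSP60, had 9647, 10315 and 8241 normalized counts in PEG-glutaminase tumours, against 7214, 7179 and 7471 in vehicle tumours. Its log2 change was 0.36 ± 0.097 (SE; limma adjusted p = 0.135), and DESeq2 called it higher (adjusted p = 0.0183). Its limma adjusted p ran from 0.0776 to 0.333 with 1 library left out. Clpp, a matrix protease, stood at -0.082 ± 0.11 (SE), and at 0.041 without vehicle 2.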
